A study of Mus musculus with 36 samples.

Results

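Marker genes of the dentate gyrus and of the hippocampal CA fields were followed across 6 inbred mouse strains and both sexes. The set holds 9 of the 37315 genes in the deposited tables, chosen by name as established markers of 3 kinds of principal neuron. The choice was made with earlier results of these data known. Prox1, C1ql2, Dsp and Tdo2 mark dentate granule cells, Fibcd1, Wfs1 and Spink8 mark CA1 pyramidal cells, and Iyd and Coch mark CA3 pyramidal cells. All 9 had enough counts to be tested.

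The hippocampus passes information through a chain of neurons. Granule cells of the dentate gyrus receive input from the entorhinal cortex and send mossy fibres to CA3, whose pyramidal cells in turn project to CA1, the main output field. Each of these cell types keeps its own set of expressed genes through adult life, and the dentate gyrus also goes on adding new granule cells.

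RNA was sequenced from the whole hippocampus of both sides of 36 mice bought from the Jackson Laboratory, 1 animal per library, with 3 males and 3 females of each strain and no other treatment. Males were 62 and females 63 days old in DBA/1J, A/J and 129S1/SvImJ. C57BL/6J males were 63 and females 64 days old, and in DBA/2J and PWD/Ph both sexes were 62 days old. Sex and this age difference cannot be told apart in the first 4 of these strains. PWD/Ph mice lived alone and mice of the other strains in groups, so strain and housing cannot be told apart for PWD/Ph. Each subfield is read here from bulk tissue, in which fewer cells of a type and less RNA per cell cannot be told apart.

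Total counts per library ran from 6493512 to 35232515 with a median of 21144604, and 19702 genes were tested. Summed levels of 5 pan-neuronal genes ran from 6526 to 9103 CPM (counts divided by the scaled library size). Markers of neighbouring tissue varied more, with 7 choroid plexus genes summing to between 31.5 and 3346 CPM. The libraries also differed in base composition. In PWD/Ph the median log2 deviation of the 3830 genes with the highest GC content, 55.5% or more, minus that of the 3830 with the lowest, 43.8% or less, was -0.73. The same difference was 0.63 in 129S1/SvImJ and 0.48 in DBA/1J, with the high-GC genes higher, and it was -0.35 in DBA/2J, 0.12 in A/J and -0.13 in C57BL/6J. Every strain comparison was therefore repeated on counts corrected for the GC content and length of each gene's longest transcript, an alternative added after the data were seen. Corrected values are given beside many of the uncorrected ones and are named as corrected. Values with none beside them are uncorrected.

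Strain differences were wide for 3 members from 2 subfields. Dsp and Tdo2, both dentate granule markers, were 5.30-fold and 5.34-fold lower in PWD/Ph than in the mean of the other 5 strains. Iyd, a CA3 marker, fell into 2 sets, high in DBA/1J, DBA/2J and C57BL/6J and low in 129S1/SvImJ, A/J and PWD/Ph. Within the low set 129S1/SvImJ still exceeded PWD/Ph by a log2 difference of 1.05. C1ql2 was 2.13-fold higher in C57BL/6J and Spink8 2.11-fold lower in 129S1/SvImJ than in the mean of the other strains. Markers of 1 subfield did not share 1 order of strains, and none of the 9 members differed between the sexes at an adjusted p under 0.05 in edgeR's quasi-likelihood test. DESeq2, another count test, called Prox1 and Dsp lower in females of PWD/Ph.

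The promoters of the 4 members with the widest strain ranges are shown as the sequence around their start sites. Whether these promoters bear on the strain differences was not tested. Each holds the 250 bases before and the 50 bases after the RefSeq start site in the GRCm38.p6 assembly, read 5′ to 3′ on the gene's strand. They are the reference build's letters, not alleles read from the 6 strains. Capitals mark matches to short motifs on either strand. The TATA box was searched as TATAAA, which 13.6% of 32851 RefSeq promoters of this length hold. The GC box was searched as GGGCGG, which 35.7% of them hold. The CCAAT box, in 37.4%, was searched by those letters, and an E-box of the Neurod type as CAGATG, in 17.2%. None of these matches overlap each other in the 4 sequences. The cAMP response element TGACGTCA, in 1.79% of promoters, has no match in them. Dsp lies at chr13:38151044-38151343 on the plus strand, Tdo2 at chr3:81975679-81975978 on the minus strand, C1ql2 at chr1:120340332-120340631 on the plus strand and Iyd at chr10:3540024-3540323 on the plus strand.
Dsp: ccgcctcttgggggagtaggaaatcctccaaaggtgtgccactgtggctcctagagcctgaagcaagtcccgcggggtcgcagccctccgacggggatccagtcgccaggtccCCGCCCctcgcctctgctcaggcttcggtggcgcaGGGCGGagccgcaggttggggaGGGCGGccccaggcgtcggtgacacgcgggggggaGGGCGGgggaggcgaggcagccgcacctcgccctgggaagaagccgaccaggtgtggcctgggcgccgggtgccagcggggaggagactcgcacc
Tdo2: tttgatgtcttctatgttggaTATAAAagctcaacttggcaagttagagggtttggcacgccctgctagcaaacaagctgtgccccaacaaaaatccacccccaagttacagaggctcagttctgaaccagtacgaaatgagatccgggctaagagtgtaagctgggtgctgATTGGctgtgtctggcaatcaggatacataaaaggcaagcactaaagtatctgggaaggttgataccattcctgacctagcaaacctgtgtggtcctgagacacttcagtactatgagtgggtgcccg
C1ql2: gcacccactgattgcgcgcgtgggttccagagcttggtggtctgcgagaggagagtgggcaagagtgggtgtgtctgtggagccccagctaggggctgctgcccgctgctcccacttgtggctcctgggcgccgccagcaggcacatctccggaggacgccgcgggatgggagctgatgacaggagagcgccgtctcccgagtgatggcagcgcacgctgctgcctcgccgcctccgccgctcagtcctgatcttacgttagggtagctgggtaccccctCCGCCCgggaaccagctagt
Iyd: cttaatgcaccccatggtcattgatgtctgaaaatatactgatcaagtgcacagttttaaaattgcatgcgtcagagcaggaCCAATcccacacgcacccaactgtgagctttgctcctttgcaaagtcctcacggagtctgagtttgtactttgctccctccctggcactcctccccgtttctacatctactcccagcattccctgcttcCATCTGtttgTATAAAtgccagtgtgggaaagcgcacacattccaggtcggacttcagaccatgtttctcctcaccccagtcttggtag
The Dsp window is 73% GC with 4 GC boxes, 1 of them on the opposite strand. The C1ql2 window is 67.3% GC with 1 GC box on the opposite strand, after the start site. Tdo2 and Iyd are poorer in GC, at 47.7% and 49%, against a median of 52.7% over all promoters. Each has 1 match to TATAAA and 1 to CCAAT, the latter on the opposite strand in Tdo2, and Iyd also has 1 E-box on the opposite strand. Relative to the start site the TATAAA match lies at -229 to -224 in Tdo2 and at -29 to -24 in Iyd. A match is a run of letters and not a measured binding site.

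Strain means differed for all 9 members in edgeR's quasi-likelihood test after Benjamini-Hochberg adjustment, as they did for 92% of the genes tested. The size of the differences separates the members better than the count. Without correction the fold from the highest to the lowest strain mean was 9.13 for Iyd, 6.84 for Dsp, 6.69 for Tdo2, 3.00 for C1ql2, 2.62 for Spink8, 2.26 for Wfs1, 1.92 for Fibcd1, 1.70 for Coch and 1.49 for Prox1. After correction the log2 range fell from 0.94 to 0.40 for Fibcd1, 0.58 to 0.27 for Prox1 and 1.59 to 1.29 for C1ql2. It also fell for Wfs1 (1.17 to 0.98), Spink8 (1.39 to 1.21) and Coch (0.76 to 0.70). For Iyd (3.19 to 3.31), Tdo2 (2.74 to 3.07) and Dsp (2.77 to 2.78) it did not fall. The members' median of 2.62-fold, uncorrected, stands beside 1.77-fold over all genes tested. The members were chosen with earlier results of these data known, so this is not an independent comparison. Per length, as mean FPKM over the 36 libraries, the level was 30.6 for Wfs1, 17.95 for Fibcd1, 13.9 for Spink8, 12.0 for Prox1, 10.6 for C1ql2, 3.88 for Dsp, 2.15 for Tdo2, 2.11 for Coch and 1.72 for Iyd, from tables whose scaling to each other is not stated. The 3 members with the widest strain ranges were thus among the 4 lowest in level.

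**Figure D1:**
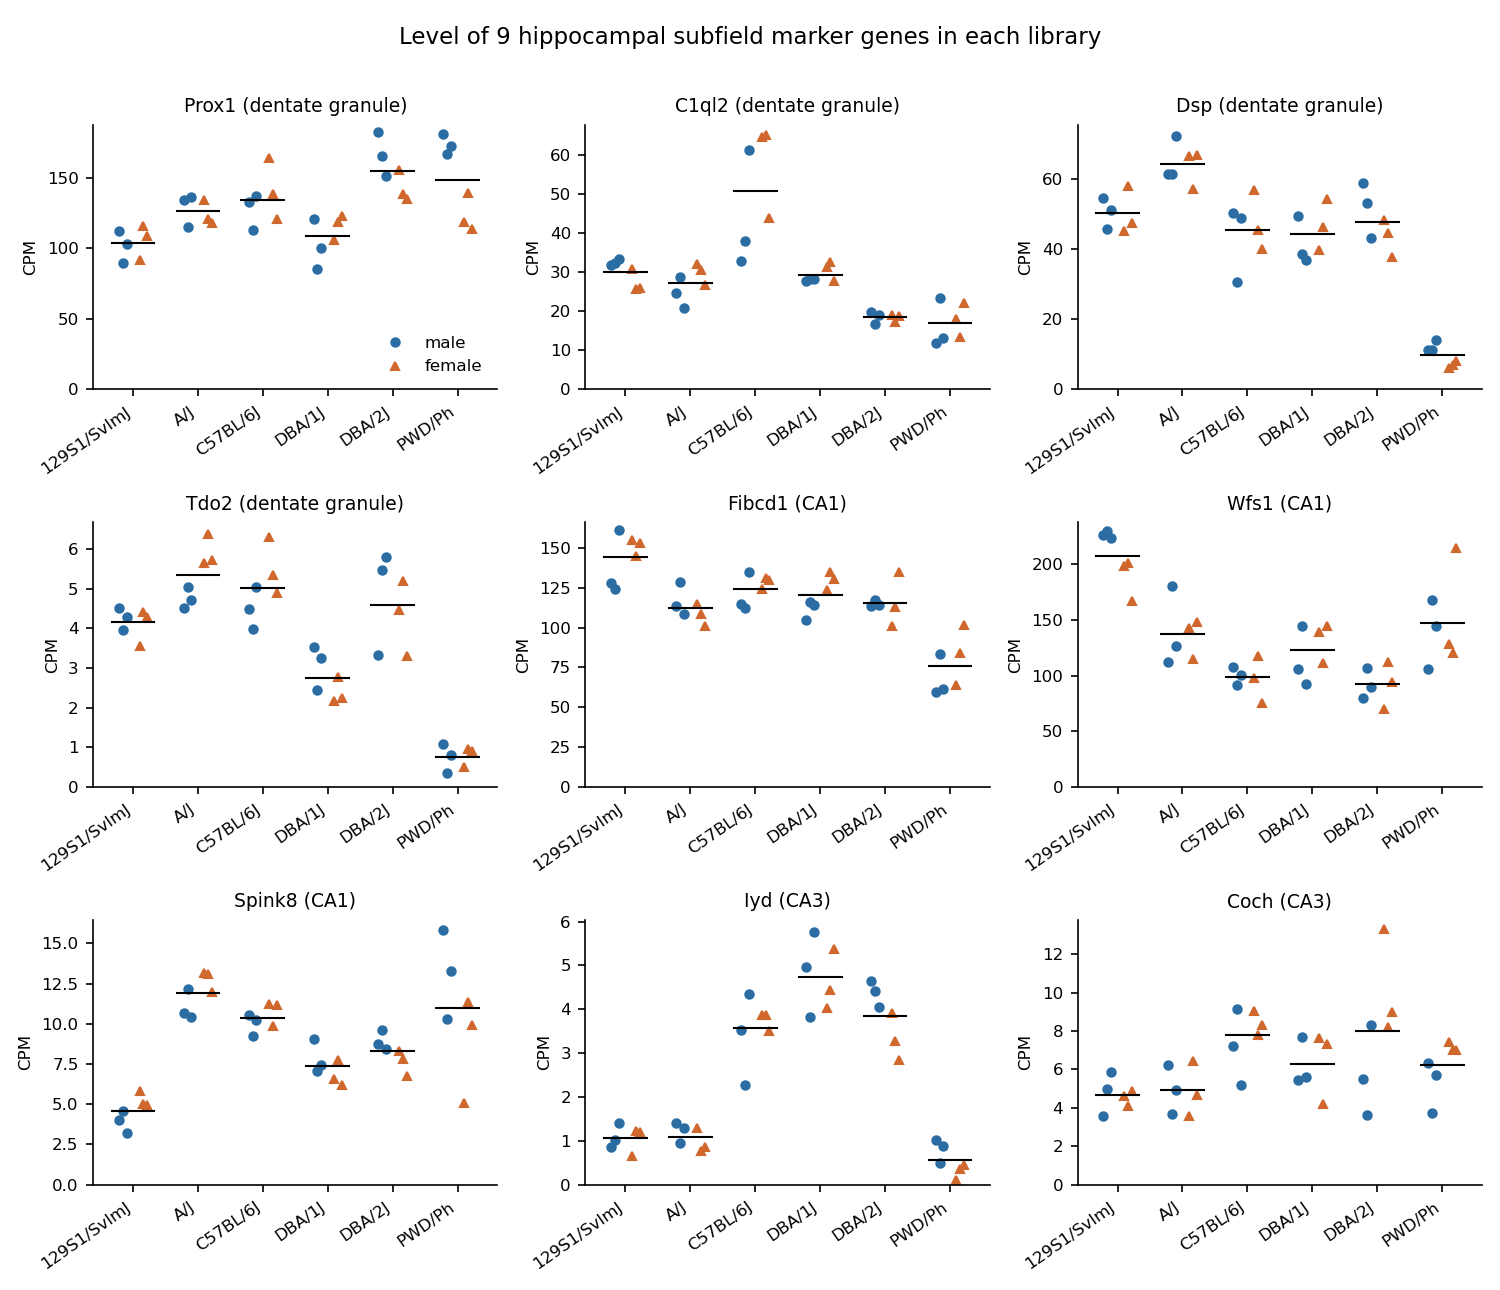
Level of each member in each library, in CPM on a linear axis from 0, with 1 panel per gene and the 6 strains along the horizontal axis. Circles are males, triangles are females and the line is the mean of the strain's 6 libraries. Dsp and Tdo2 in PWD/Ph lie below every other library, and Iyd splits the strains into a high and a low set of 3.

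In the comparison of each strain with the mean of the other 5, 39 of 54 member values passed the threshold, against 51.5% over all genes. Per strain, 8 members passed in 129S1/SvImJ (67.4% of all genes), 5 in A/J (33.2%), 7 in C57BL/6J (34.7%), 5 in DBA/1J (53.4%), 7 in DBA/2J (49.5%) and 7 in PWD/Ph (70.5%). These 6 comparisons share libraries and are not independent. A very low strain also lies in the mean that each other strain is set against. Dsp thus passed as higher in DBA/1J, at 0.27, although its mean there was above only that of PWD/Ph. After correction that value was 0.14 and did not pass. The plot of strain differences gives all 54 values before and after correction. With the correction 39 values again passed, but 9 of the first 39 did not keep both their direction and their call. Over all genes the calls went from 60824 of 118212 to 54390 with the correction.

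**Figure D2:**
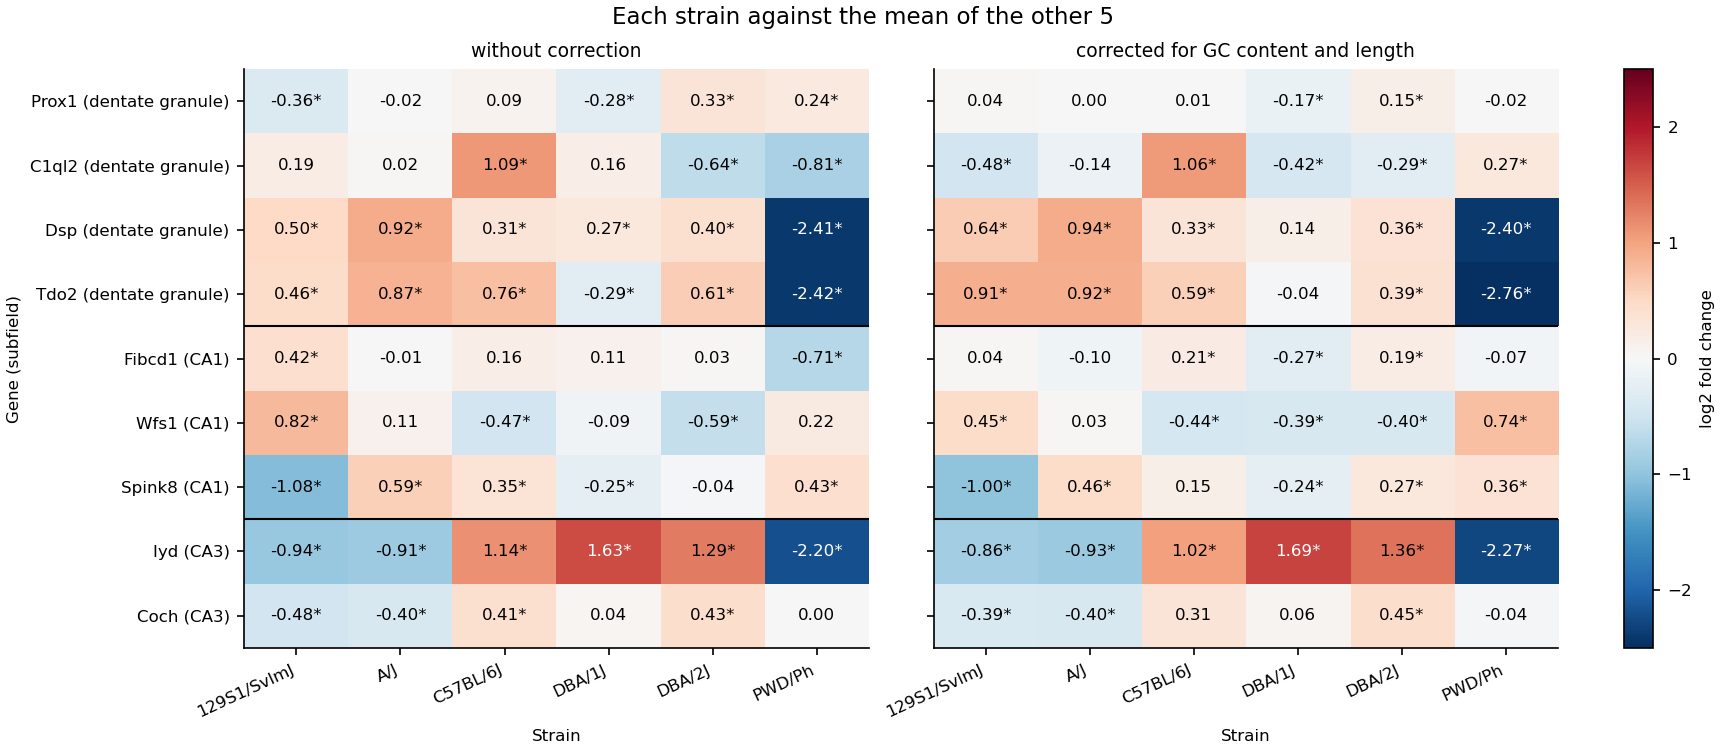
Log2 difference of each strain (columns) from the mean of the other 5 for the 9 members (rows of the grid), in colour and as numbers, without correction (left) and corrected for GC content and transcript length (right), where a star marks an adjusted p under 0.05. The deep values of Dsp, Tdo2 and Iyd in PWD/Ph stand in both panels, while Fibcd1 in PWD/Ph and Prox1 and Fibcd1 in 129S1/SvImJ move to near 0.

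Among the dentate granule markers, Dsp (desmoplakin, a plaque protein that ties desmosomes to intermediate filaments; ENSMUSG00000054889, 13:38151294-38198577, plus strand) was far lower in PWD/Ph than in any other strain. Its PWD/Ph libraries ran from 6.21 to 14.2 CPM with a median of 9.67, on 62 to 464 counts. A/J libraries ran from 57.3 to 72.3 with a median of 64.1 CPM, and 129S1/SvImJ from 45.1 to 58.0 with a median of 49.3 CPM. Every PWD/Ph library lay below every library of the other strains, whose lowest value was 30.6 CPM in C57BL/6J. Medians of the remaining strains were 47.2 CPM in C57BL/6J (highest 56.96), 43.2 in DBA/1J (36.9 to 54.3) and 46.6 in DBA/2J (37.9 to 58.9). Of all genes tested, 3.22% had all PWD/Ph libraries below the other 30. The log2 difference of PWD/Ph from the other strains was -2.41 (SE 0.114, adjusted p = 4.91e-18), and -2.40 after correction. A/J was higher than the rest by 0.92 (SE 0.0817, adjusted p = 1.34e-10), and its lead over 129S1/SvImJ, the next strain, was 0.35 (adjusted p = 0.00782). After correction 129S1/SvImJ minus A/J was -0.25. The 4 strains from 129S1/SvImJ to DBA/1J followed each other with no step that passed the test. Exons of Dsp overlap Gm10129 on the other strand in the annotation, and without a stated strand setting their reads cannot be told apart.

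Tdo2 (tryptophan dioxygenase, the enzyme that opens the ring of tryptophan at the head of the kynurenine pathway; ENSMUSG00000028011, 3:81957090-81976202, minus strand) had the same low strain. Its PWD/Ph libraries held 5 to 26 counts and ran from 0.344 to 1.08 CPM with a median of 0.855. DBA/1J libraries were intermediate, from 2.18 to 3.53 with a median of 2.61 CPM. PWD/Ph lay below all other libraries, and DBA/1J also below all those of 129S1/SvImJ, its upper neighbour, which ran from 3.55 to 4.51 CPM. Medians in the other strains were 5.35 CPM in A/J (4.52 to 6.38), 4.97 in C57BL/6J (3.99 to 6.30) and 4.83 in DBA/2J (3.31 to 5.81). The log2 difference of PWD/Ph from the rest was -2.42 (SE 0.160, adjusted p = 3.02e-14), and -2.76 after correction. DBA/1J exceeded PWD/Ph by 1.77 (adjusted p = 3.26e-09), and 129S1/SvImJ exceeded DBA/1J by 0.62 (adjusted p = 0.000557). After correction these differences were 2.27 and 0.79. The call of DBA/1J against the mean of the rest, -0.29 with an adjusted p of 0.0424, was lost after correction (-0.04) and with any 1 of 23 libraries left out, most of all DBA/1J male replicate 2 (-0.21, adjusted p = 0.171). On log2(FPKM + 0.1) it turned to 0.23. The 4 upper strains did not differ between neighbours.

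C1ql2 (a secreted C1q-like protein of mossy fibre synapses; ENSMUSG00000036907, 1:120340582-120343174, plus strand) was highest in C57BL/6J, where libraries ran from 32.95 to 65.2 CPM with a median of 52.6. In PWD/Ph they ran from 12.0 to 23.3 with a median of 15.7 CPM, and in DBA/2J from 16.7 to 19.8 with a median of 18.9 CPM. C57BL/6J touched 129S1/SvImJ (25.8 to 33.4) only at its lowest library. Its SD of 14.4 CPM, around the highest mean, 51.0, was the largest of the 6 strains in CPM. On the log2 scale PWD/Ph was as spread, with deviations from group means between -0.39 and 0.59, against -0.38 and 0.53 in C57BL/6J. DBA/1J (27.8 to 32.6) lay within the range of 129S1/SvImJ, and A/J (20.8 to 32.1) overlapped it but reached lower. The C57BL/6J difference from the rest was 1.09 on the log2 scale (SE 0.0985, adjusted p = 1.85e-10) and 1.06 after correction. The low value in PWD/Ph was not stable in this sense. Its difference was -0.81 (adjusted p = 4.11e-07) and turned to 0.27 after correction, with an adjusted p of 0.000894. Values that had missed the threshold in 129S1/SvImJ (0.19) and DBA/1J (0.16) passed it in the other direction at -0.48 and -0.42. At 63.4%, the C1ql2 transcript had the highest GC content of the 9 members.

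Prox1 (a homeobox transcription factor that granule cells need for their identity; ENSMUSG00000010175, 1:190118035-190170714, minus strand) varied least. Its strain means ran from 104 ± 10.9 CPM in 129S1/SvImJ, through 109 ± 14.6 in DBA/1J, 126 ± 9.38 in A/J and 134 ± 17.6 in C57BL/6J, to 149 ± 28.8 in PWD/Ph and 155 ± 17.7 in DBA/2J (SD, n = 6). The libraries of each strain overlapped those of its neighbours in this order, and between neighbours only the step from A/J to DBA/1J passed the test, at 0.22 (adjusted p = 0.0293). That step was lost after correction (0.14) and with any 1 of 18 libraries left out, most of all A/J female replicate 1 (0.15). Against the rest, 129S1/SvImJ was at -0.36 (adjusted p = 2.2e-05) and PWD/Ph at 0.24 (adjusted p = 0.00144). Neither held after correction, at 0.04 (adjusted p = 0.586) and -0.02 (adjusted p = 0.786). DBA/1J (-0.28, then -0.17) and DBA/2J (0.33, then 0.15) kept their calls after correction. Both were lost on log2(FPKM + 0.1), at -0.14 (adjusted p = 0.13 by limma) and 0.11 (adjusted p = 0.19), where PWD/Ph was at 0.01. In counts corrected for GC content and length the strain range narrowed from 0.58 to 0.27 (adjusted p = 0.0328 by edgeR). Exons of Prox1 overlap Prox1os, an antisense gene, and its locus also overlaps Gm28172, another antisense gene.

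Of the CA1 markers, Fibcd1 (a cell-surface receptor with a fibrinogen-like domain that binds chitin; ENSMUSG00000026841, 2:31813290-31846005, minus strand) was lowest in PWD/Ph, at 59.9 to 101 CPM with a median of 73.6. It was highest in 129S1/SvImJ, at 124 to 161 CPM with a median of 149. The other 4 strains had medians between 111 and 127 CPM, and PWD/Ph reached the lowest A/J and DBA/2J libraries at its highest value. The difference of PWD/Ph from the rest was -0.71 (SE 0.0730, adjusted p = 6.2e-10) and that of 129S1/SvImJ 0.42 (adjusted p = 1.84e-06). After correction they were -0.07 (adjusted p = 0.348) and 0.04 (adjusted p = 0.617), and the strain range fell from 0.94 to 0.40 on the log2 scale. Then 3 other strains passed the threshold, DBA/1J at -0.27 (from 0.11 before), C57BL/6J at 0.21 (from 0.16) and DBA/2J at 0.19 (from 0.03). Fibcd1 transcripts are 59.4% GC.

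Wfs1 (wolframin, a membrane protein of the endoplasmic reticulum lost in Wolfram syndrome; ENSMUSG00000039474, 5:36966104-36989205, minus strand) was highest in 129S1/SvImJ, at 167 to 230 CPM with a median of 213. C57BL/6J ran from 75.1 to 117 with a median of 99.2 CPM, and DBA/2J from 69.6 to 112 with a median of 92.2 CPM. All 129S1/SvImJ libraries exceeded all those of C57BL/6J and DBA/2J, while A/J (112 to 181), DBA/1J (92.9 to 145) and PWD/Ph (106 to 215) lay between. The difference from the rest was 0.82 in 129S1/SvImJ (SE 0.105, adjusted p = 6.12e-08), -0.47 in C57BL/6J and -0.59 in DBA/2J, all past the threshold. After correction these were 0.45 (adjusted p = 7.59e-05), -0.44 and -0.40. The correction brought PWD/Ph past the threshold, from 0.22 (adjusted p = 0.0747) to 0.74 (adjusted p = 1.53e-08), above 129S1/SvImJ. It also brought DBA/1J past it, from -0.09 (adjusted p = 0.548) to -0.39 (adjusted p = 0.00145). Wfs1 was therefore high in 129S1/SvImJ and low in C57BL/6J and DBA/2J on both scales, with PWD/Ph high and DBA/1J low after correction.

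Spink8 (a member of the Kazal-type serine peptidase inhibitors; ENSMUSG00000050074, 9:109812280-109826633, plus strand) was lowest in 129S1/SvImJ, at 3.23 to 5.84 CPM with a median of 4.75. A/J was highest, at 10.4 to 13.2 CPM with a median of 12.1. All 129S1/SvImJ libraries lay below those of DBA/1J, the next strain, which ran from 6.19 to 9.08 CPM, but PWD/Ph, the most spread, reached down to 5.10 CPM. Medians were 10.4 CPM in C57BL/6J, 8.38 in DBA/2J and 10.8 in PWD/Ph. The difference of 129S1/SvImJ from the rest was -1.08 (SE 0.104, adjusted p = 2.57e-10) and -0.998 after correction. A/J was higher by 0.59, and by 0.46 after correction. In 129S1/SvImJ the 3 CA1 markers thus went 3 ways after correction, with Wfs1 higher, Spink8 lower and Fibcd1 past no threshold.

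Iyd (iodotyrosine deiodinase, which recovers iodide in the thyroid; ENSMUSG00000019762, 10:3540240-3554877, plus strand) marks CA3 and had the widest range of the 9. DBA/1J ran from 3.83 to 5.76 CPM with a median of 4.71, DBA/2J from 2.83 to 4.64 with a median of 3.99, and C57BL/6J from 2.28 to 4.34 with a median of 3.70. The 3 low strains were A/J, at 0.767 to 1.41 with a median of 1.11 CPM, 129S1/SvImJ, at 0.654 to 1.40 with a median of 1.11 CPM, and PWD/Ph, at 0.1001 to 1.02 with a median of 0.469 CPM. No library of the low strains reached the lowest of the high ones. The step between C57BL/6J and A/J was 1.71 on the log2 scale (adjusted p = 4.7e-09), and A/J minus C57BL/6J was -1.63 after correction. Neighbours within the high set did not differ past the threshold. Within the low set 129S1/SvImJ exceeded PWD/Ph by 1.05 (adjusted p = 0.00135), and by 1.18 after correction. The PWD/Ph values rest on 1 to 29 counts. Against the mean of the rest, DBA/1J was at 1.63 (SE 0.127, adjusted p = 1.06e-11) and PWD/Ph at -2.20 (SE 0.211, adjusted p = 1.31e-10). All 6 strain values of Iyd kept their call and direction after correction, between -2.27 in PWD/Ph and 1.69 in DBA/1J.

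Coch (cochlin, an extracellular matrix protein abundant in the inner ear; ENSMUSG00000020953, 12:51593341-51605771, plus strand) is the other CA3 marker. Its means were highest in DBA/2J, C57BL/6J and DBA/1J, the high set of Iyd, but its strain range was narrower, 1.70-fold against 9.13-fold. Against the rest it was at 0.04 in DBA/1J and -0.002 in PWD/Ph, where Iyd was at 1.63 and -2.20. Its medians were 4.74 CPM in 129S1/SvImJ (3.57 to 5.88), 4.79 in A/J (3.55 to 6.41), 8.06 in C57BL/6J (5.17 to 9.17), 6.46 in DBA/1J (4.196 to 7.66), 8.25 in DBA/2J (3.61 to 13.3) and 6.69 in PWD/Ph (3.71 to 7.41). All 6 ranges overlapped, and no step between neighbours in the order of means passed the test. The differences from the rest were -0.48 in 129S1/SvImJ (adjusted p = 0.0055), -0.40 in A/J (adjusted p = 0.0375), 0.41 in C57BL/6J (adjusted p = 0.0247) and 0.43 in DBA/2J (adjusted p = 0.0168). After correction they were -0.39, -0.40, 0.31 and 0.45 in the same strains. Of these, 129S1/SvImJ was the one that kept its call with each of the 36 libraries left out, but on log2(FPKM + 0.1) it was lost (-0.30, adjusted p = 0.0836 by limma), as were the other 3. The A/J call was lost without A/J male replicate 2 (-0.31), A/J male replicate 3 (-0.40), A/J female replicate 1 (-0.32), A/J female replicate 3 (-0.38) or DBA/2J female replicate 1 (-0.37). In C57BL/6J it was lost without male replicate 1 (0.41), male replicate 2 (0.28) or female replicate 1 (0.38), and after correction (0.31). In DBA/2J it was lost without male replicate 3 (0.24) or female replicate 1 (0.29).

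The share of variance of log2 CPM that lay between strains put the members in a similar order. It was 93.1% for Dsp, 91.1% for Tdo2, 86.2% for Iyd, 80.9% for C1ql2, 77.4% for Fibcd1, 75.3% for Spink8, 72.2% for Wfs1, 59.3% for Prox1 and 36.5% for Coch, against a median of 65.1% over all genes tested. Coch had the largest share within groups, 43.1%, and Prox1 the largest share in sex by strain, 18.2%. Of the 135 differences between pairs of strains, 88 passed a threshold adjusted over all genes and pairs, against 52.6% over all genes. Iyd passed in 12 of 15 pairs and Coch in 5, with the other members between 9 and 11. DBA/1J and DBA/2J, related strains, differed in 4 members (54.6% of all genes). DBA/1J was lower by a log2 difference of -0.51 for Prox1 and -0.75 for Tdo2, and higher by 0.66 for C1ql2 and 0.42 for Wfs1. Prox1 and Tdo2 kept these calls after correction, but at -0.27 and -0.36 (adjusted p = 0.00265 and 0.0471 by edgeR). C1ql2 was then at -0.11 and Wfs1 at 0.00. On log2(FPKM + 0.1) Prox1 was at -0.21 (adjusted p = 0.0679 by limma) and Tdo2 at 0.18 (adjusted p = 0.494). Without DBA/1J male replicate 2 or DBA/2J female replicate 1 the Wfs1 difference, 0.32 or 0.33, did not pass either.

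Other markers of the same cells were counted in the same comparison. Their counts stand beside the shares of all genes that passed in either direction before correction, which were 67.4% in 129S1/SvImJ, 33.2% in A/J, 53.4% in DBA/1J, 49.5% in DBA/2J and 70.5% in PWD/Ph. Of 15 other dentate granule markers, 9 were higher and 0 lower in DBA/2J than in the mean of the other strains, and 5 were higher and 5 lower in PWD/Ph. In PWD/Ph this is near the share of all genes. After correction the counts were 5 and 1 in DBA/2J and 3 and 6 in PWD/Ph. The list's median difference in PWD/Ph was -0.02, as was the median of all genes tested, and -0.11 after correction. One of its genes resembled Dsp and Tdo2 there. Npnt (nephronectin, a matrix ligand of integrins) was at 6.47 CPM in PWD/Ph and between 27.3 and 39.0 in the other strains, a difference of -2.32, and -2.31 after correction. Lct (lactase) was higher in PWD/Ph by 1.04 and lower in A/J at -0.85, and Pdyn (prodynorphin, the precursor of dynorphin peptides) was at -0.86 in DBA/1J and 0.64 in A/J, with all 4 calls unchanged after correction. For Rfx3, a transcription factor of ciliated cells, the values of 0.51 in PWD/Ph and -0.60 in 129S1/SvImJ became 0.05 and 0.04.

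Genes of adult neurogenesis followed in the dentate gyrus differed between strains in 7 of 7 cases (92% of all genes), and in 6 after correction. In 129S1/SvImJ 5 of the 7 were lower and 0 higher, which became 3 lower and 1 higher after correction. Dcx (doublecortin, a microtubule protein of newborn neurons) ran from 19.1 CPM in 129S1/SvImJ to 53.3 CPM in PWD/Ph. Its difference from the rest was -0.91 in 129S1/SvImJ and 0.87 in PWD/Ph, and after correction -0.28 and 0.42. PWD/Ph was thus the highest strain for Dcx and the lowest for Dsp. Top2a (topoisomerase II alpha, made by dividing cells) differed 2.27-fold between C57BL/6J, at 3.07 ± 0.606 CPM, and DBA/2J, at 1.43 ± 0.729 CPM (SD, n = 6).

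Of 6 other CA1 markers, 3 were higher and 0 lower in DBA/2J, and 1 was higher and 3 lower in PWD/Ph. After correction these counts were 5 and 0, and 2 and 2. Man1a (a mannosidase of the Golgi) was higher in DBA/2J by 0.64 and by 0.53 after correction. Etv1 (an ETS transcription factor) was higher there by 0.55, and by 0.22 after correction. Of 7 other CA3 markers, 4 were higher and 0 lower in A/J, 5 and 0 after correction, whereas Iyd and Coch were both lower in A/J. Homer3 (a scaffold of postsynaptic glutamate receptors) was higher in A/J by 0.51, and by 0.39 after correction. Ociad2 (a protein with an OCIA domain) was at -0.47 in PWD/Ph, and at -0.55 after correction. Bok (a BCL2-family protein) was at -0.86 in PWD/Ph and Trps1 (a zinc finger transcription factor) at -0.69 in 129S1/SvImJ, and after correction these were 0.05 and -0.05. In DBA/1J, where Iyd was highest, 1 of the 7 was higher and 4 lower, and after correction 0 and 4.

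CA2 and mossy cell markers, the neighbours of CA3 and of the granule layer, were mixed. Of 6 CA2 markers 3 were higher and 2 lower in PWD/Ph, with the same counts after correction. Map3k15 (a protein kinase) was higher there by 0.92 in counts, but lower at -0.41 on the log2(FPKM + 0.1) scale. Rgs14 (a regulator of G-protein signalling that limits plasticity in CA2) was lower in PWD/Ph at -0.68, and at -0.48 after correction. Of 5 mossy cell markers, 1 was higher and 3 lower in DBA/2J, and 1 and 2 after correction. In PWD/Ph their counts went from 1 higher and 2 lower to 3 higher and 0 lower. Glipr1 (a GLI pathogenesis-related protein) ran from 7.03 CPM in DBA/1J to 12.5 CPM in PWD/Ph, and Ajap1 (a protein of adherens junctions) from 24.7 CPM in PWD/Ph to 38.6 CPM in 129S1/SvImJ. Calb2 (calretinin, a calcium-binding protein of mouse mossy cells) was at 0.82 in 129S1/SvImJ and -0.83 in DBA/2J, and at 0.52 and -0.53 after correction.

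**Figure D3:**
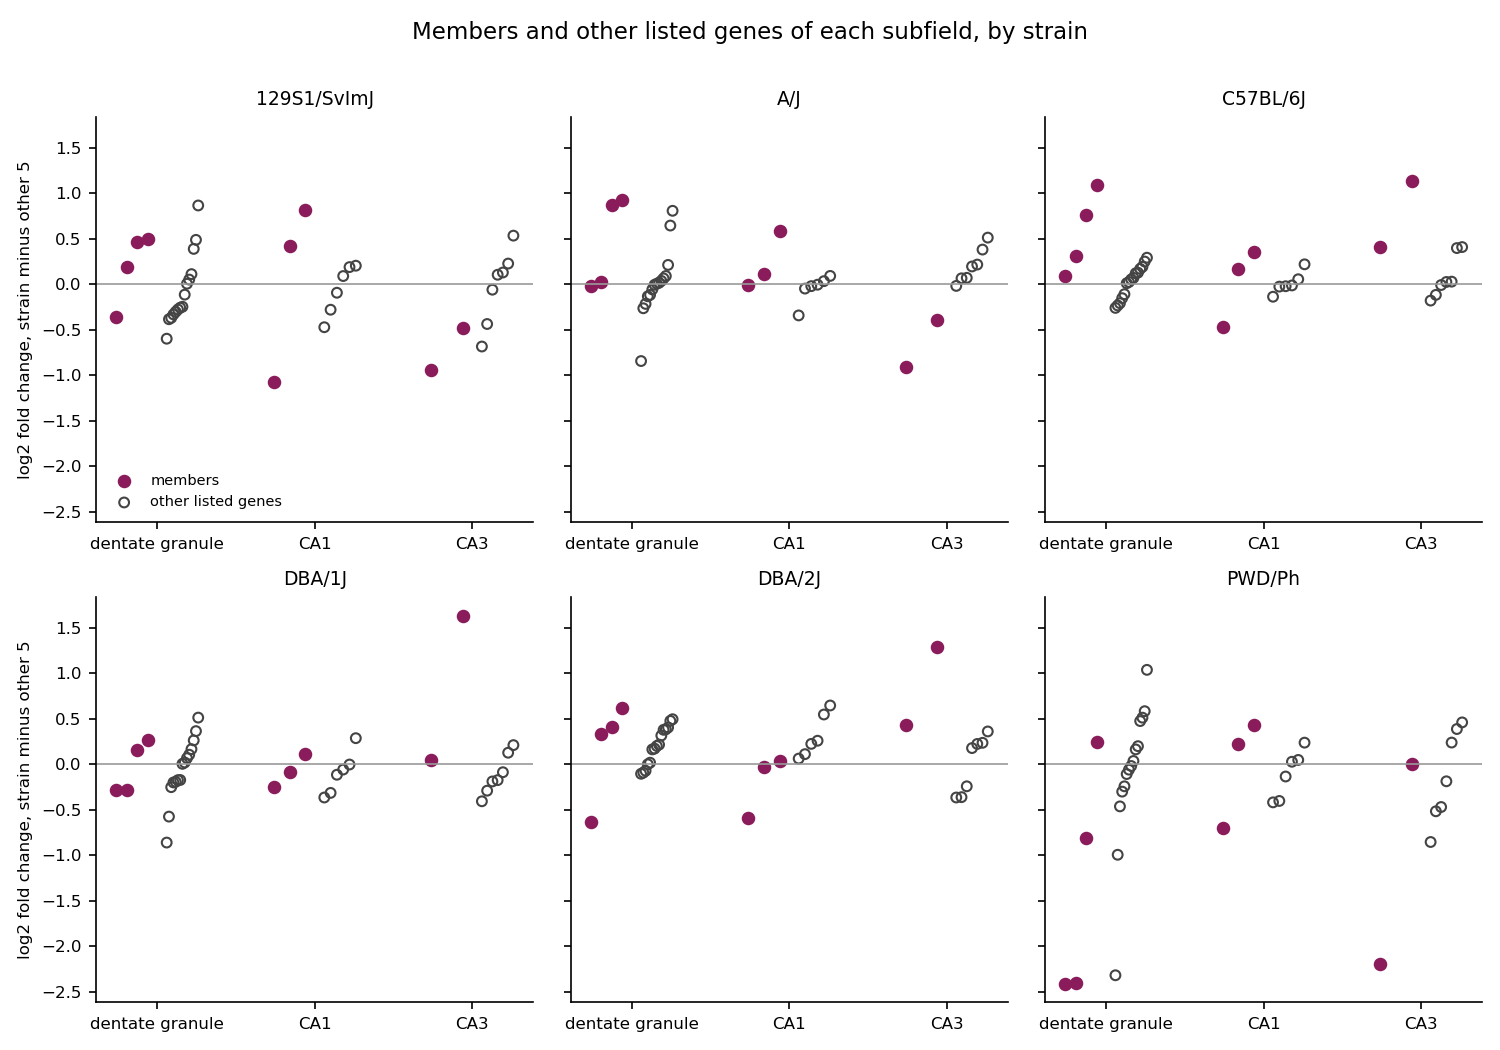
Log2 difference of each strain from the mean of the other 5 for the members (filled points) and for the other markers of the dentate granule, CA1 and CA3 lists (open points), 1 point per gene, uncorrected. The 2 lowest filled points of PWD/Ph are Tdo2 and Dsp, with Npnt just above them at -2.32, and the lowest CA3 point is Iyd.

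Markers of other cells were also counted in PWD/Ph, the strain with the lowest Dsp, Tdo2 and Iyd. There 70.5% of all genes passed in either direction before correction, and most of its list counts lie near that share. The sum of 5 oligodendrocyte genes ran from 1998 to 3225 CPM there and from 2941 to 6124 CPM elsewhere, and 4 of the 5 were lower, 5 after correction. The sum of 6 meningeal genes ran from 33.1 to 118 CPM there, with 4 lower and 3 after correction, against 64.2 to 417 CPM elsewhere. The sum of 5 interneuron genes ran from 683 to 819 CPM in PWD/Ph and from 461 to 642 CPM elsewhere, with 3 higher and 1 lower, and 3 and 0 after correction. Of 5 astrocyte genes 1 was higher and 4 lower in PWD/Ph, 1 and 2 after correction, while their sum there, 1230 to 1368 CPM, lay inside the 967 to 2243 CPM of the other strains. Of 5 thalamic genes 3 were higher and 1 lower, 3 and 2 after correction, with sums of 142 to 194 CPM there and 97.8 to 167 CPM elsewhere. Of 5 neocortical genes 1 higher and 3 lower turned to 3 higher and 1 lower. Of the 7 choroid plexus genes 4 were higher in C57BL/6J (34.7% of all genes in either direction), the strain with the highest C1ql2. The 7 genes summed there to between 353 and 2493 CPM. Single libraries also stood apart, with 75.0 CPM over 3 pituitary genes in C57BL/6J male replicate 2 (median of all libraries 0.952) and 82.5 CPM over 6 striatal genes in PWD/Ph female replicate 1 (median 25.2). No gene of the oligodendrocyte, meningeal, interneuron and choroid plexus lists was at 0 throughout a group. Their part in the members' differences was not tested.

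The genes whose log2 CPM tracked a member most closely over the 36 libraries were taken from 15988 tested genes with a symbol and a mean of at least 1 CPM. For Dsp they were Npnt (r = 0.97), Tmc3 (0.96) and Sebox (0.95), and for Tdo2 they were Thyn1, 2810001G20Rik and Srl, all at 0.94. Tmc3 was at 0.835 CPM in PWD/Ph and between 12.0 and 14.3 CPM elsewhere. Iyd came closest to Olfml3 (0.89), Syt2 (0.87) and Gm14326 (0.86), and Coch to Steap2 (0.79), Vat1l (0.78) and Antxr1 (0.78). Prox1 came closest to Cblb (0.91), Ppfia2 (0.90) and Nrip1 (0.89). C1ql2 came closest to Nudt3 (0.88), Rsph3a (0.87) and Myoc (0.85), which stood at 18.1 CPM in C57BL/6J and at most 1.76 CPM in any other strain. Fibcd1 came closest to 1700017B05Rik (0.93), Maged1 (0.93) and Clcn2 (0.91), Wfs1 to Scamp5 (0.87), Nudcd3 (0.86) and Cerk (0.86), and Spink8 to Esd (0.87), Gm8822 (0.84) and Mpeg1 (0.84). These values describe points that share strain, library, depth and base composition, and no member was among the closest 3 of another.

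Females and males were compared in the average over strains, and 0 of 9 members passed the threshold by edgeR's quasi-likelihood test (0.239% of all genes), nor did any by DESeq2. At an unadjusted p under 0.05 there were 2, Iyd and Coch. Iyd was lower in females by a log2 difference of -0.34 (SE 0.124, adjusted p = 0.209), and Coch higher by 0.23 (adjusted p = 0.331). For Wfs1, Tdo2, Spink8 and Prox1 the differences were 0.00, 0.03, -0.04 and -0.06, with 95% intervals from -0.17 to 0.17 for Wfs1 and from -0.16 to 0.22 for Tdo2. C1ql2, Dsp and Fibcd1 were at 0.11, -0.13 and 0.10.

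Within strains 0 of 54 member values passed by edgeR's quasi-likelihood test (0.99% of all genes), with 8 at an unadjusted p under 0.05, of which 5 were in PWD/Ph. DESeq2 called 2 of them, Prox1 (adjusted p = 0.0234) and Dsp (adjusted p = 0.0147) in PWD/Ph, and edgeR with no low-count filter called the same 2 (adjusted p = 0.0196 and 0.0123). The nearest in the filtered edgeR test was Prox1 in PWD/Ph. Its males were at 181, 167 and 172 CPM and its females at 118, 139 and 114 CPM. No female reached the lowest male, and the log2 difference was -0.49 (SE 0.120, adjusted p = 0.0752). After correction it was -0.38 (adjusted p = 0.152). Dsp in the same animals was 12.2 ± 1.74 CPM in males and 7.14 ± 1.01 in females (SD, n = 3), a difference of -0.79 (SE 0.202, adjusted p = 0.0859 by edgeR) and -0.81 after correction. Iyd in PWD/Ph had 17, 7 and 29 counts in males and 1, 6 and 5 in females, a difference of -1.35 (SE 0.448, adjusted p = 0.17 by edgeR). The 1 count was in female replicate 1, the library that stood apart in striatal genes, and it lay -1.19 log2 from its group's mean. The remaining values in PWD/Ph were -0.56 for Spink8 (adjusted p = 0.152) and 0.29 for Fibcd1 (adjusted p = 0.282). Corrected, Fibcd1 was at -0.02 and Spink8 at -0.32. Whether these PWD/Ph values passed turned on 2 libraries. Without PWD/Ph male replicate 2, all 5 of these genes passed, with Prox1 at -0.53, Dsp at -0.88, Iyd at -1.57, Spink8 at -0.72 and Fibcd1 at 0.43. Without PWD/Ph female replicate 2, Prox1 (-0.60), Dsp (-0.80) and Spink8 (-0.83) passed. Over all genes and strains the count of calls within strains rose as well, from 1170 to 2944 without the first of these libraries and to 2727 without the second.

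A test of whether the sex difference varied between strains passed for 0 of 9 members by edgeR (1.64% of all genes), with 3 at an unadjusted p under 0.05. These were Prox1 (adjusted p = 0.0884), Spink8 (adjusted p = 0.122) and Dsp (adjusted p = 0.135). DESeq2 called all 3 (adjusted p = 0.0248, 0.031 and 0.0439), and edgeR with no low-count filter called Prox1 (0.0126) and Dsp (0.0179). In the filtered edgeR test Prox1 passed with the GC and length correction (adjusted p = 0.0465) and without 129S1/SvImJ female replicate 1 (0.0489), DBA/1J male replicate 1 (0.0466), PWD/Ph male replicate 2 (0.0480) or PWD/Ph female replicate 2 (0.0322). Spink8 passed without either of these last 2 libraries (adjusted p = 0.0384 and 0.0311). Female and male libraries did not overlap in 11 of the 54 sets. Of these 4 were in PWD/Ph (9.59% of all genes), 3 in 129S1/SvImJ (14.2%), 2 in DBA/2J (14.3%), 1 in A/J (34.5%), 1 in DBA/1J (9.14%) and 0 in C57BL/6J (25.5%). Females were above in 4 sets, among them Tdo2 in A/J and Coch in PWD/Ph, and below in 7, among them Wfs1 and C1ql2 in 129S1/SvImJ and Iyd in DBA/2J and PWD/Ph. Iyd was the only member whose sexes stood apart in the same direction in 2 strains.

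**Figure D4:**
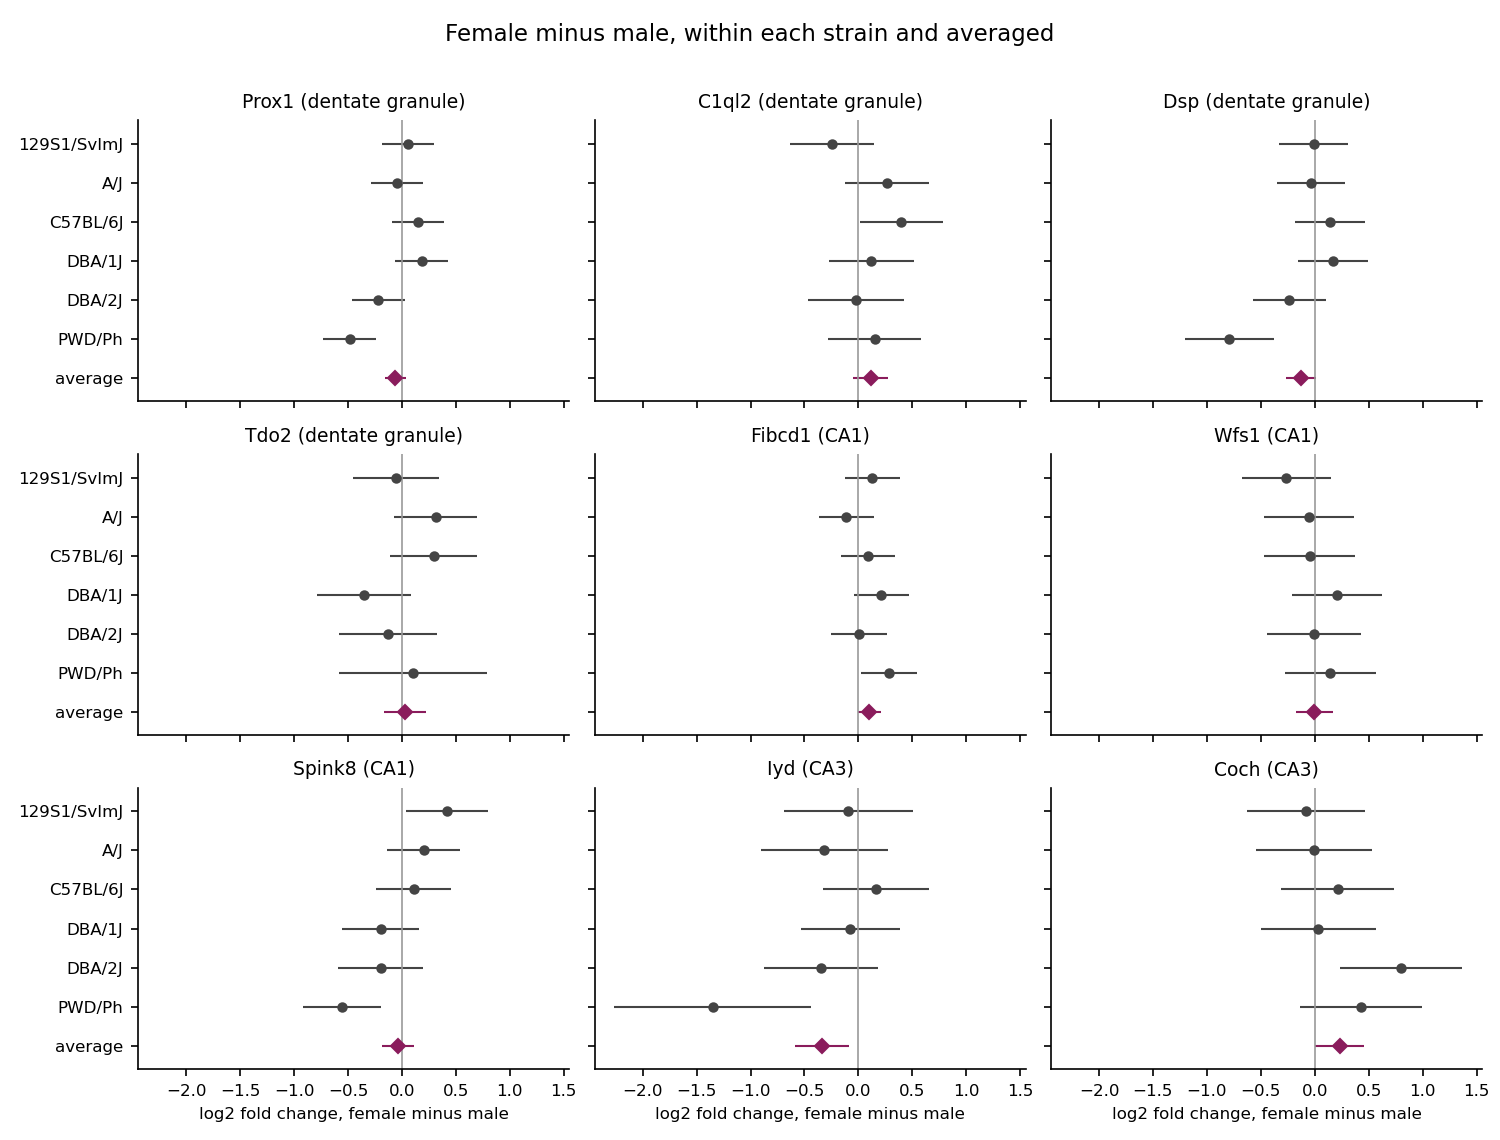
Log2 difference of females from males for the 9 members in each strain (circles) and averaged over strains (diamonds), with 95% intervals of the edgeR fit. The averages lie between -0.34 and 0.23, and in PWD/Ph Prox1, Dsp and Iyd are lower in females without passing the threshold.

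Whether markers vary together between animals of 1 strain and sex was read from the 36 libraries after removing the mean of each of the 12 groups. Of the 36 pairs of members, 10 from 1 subfield and 26 from different subfields, 3 passed a permutation test of Pearson's r within groups after Benjamini-Hochberg adjustment, and 2 passed with both r and Spearman's rho. The share of all pairs of genes that would pass was not worked out. Libraries of 1 strain also differed in the high-GC minus low-GC difference, from -1.29 to -0.10 in PWD/Ph. Prox1 and Dsp, both dentate, had r = 0.70 and rho = 0.71 (adjusted permutation p = 0.00468 and 0.00324), and r = 0.69 without the 2 libraries farthest from the median of Prox1. Their r was 0.75 after correction and 0.81 without PWD/Ph, and the pair passed with each of the 36 libraries left out. Dsp and Iyd, from different subfields, had r = 0.54 and rho = 0.52 (adjusted permutation p = 0.03996 and 0.04404), and r = 0.51 without the 2 farthest libraries. That pair passed with Pearson's r in 24 of the 36 leave-outs and with rho in 11, and without PWD/Ph its adjusted permutation p was 0.0911.

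Tdo2 and Spink8 had r = 0.67 but rho = 0.55 (adjusted permutation p = 0.03996 and 0.0821), and without PWD/Ph r was 0.32 (adjusted permutation p = 0.602), so this uncorrected relation rested on that strain. After correction the pair passed both tests, at r = 0.74 and rho = 0.61 (adjusted permutation p = 0.0155 and 0.0295). Prox1 and Iyd passed with rho alone, at r = 0.47 and rho = 0.59 (adjusted permutation p = 0.0621 and 0.016). Without PWD/Ph that pair passed both tests (r = 0.64, adjusted permutation p = 0.0214 and 0.0247), and after correction it passed neither (r = 0.37, adjusted permutation p = 0.0774 and 0.0965). Prox1 and C1ql2, both dentate, had r = -0.07 before correction. After it r was 0.67 and rho 0.54 (adjusted permutation p = 0.0463 and 0.0667), so the pair then passed with r alone. The plot of deviations shows Dsp and C1ql2 against Prox1.

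**Figure D5:**
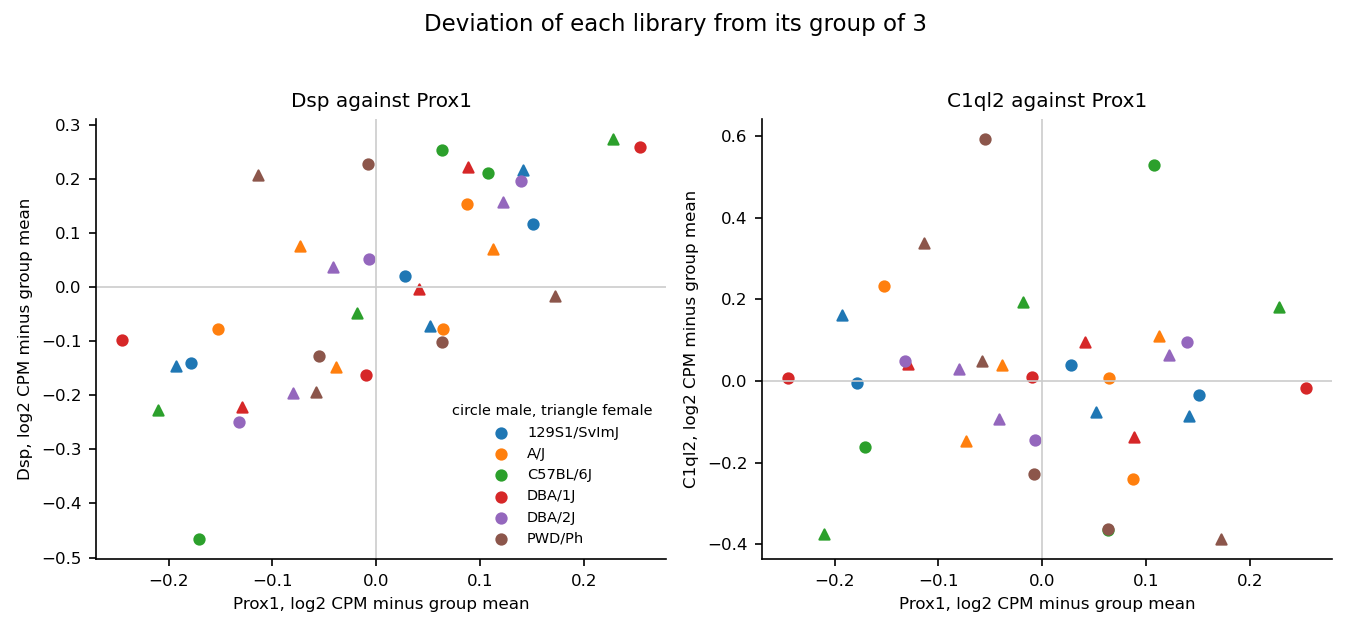
Deviation of log2 CPM from the mean of the library's strain and sex group, for Dsp (left) and C1ql2 (right) against Prox1, 1 point per library, with colours for strains. On these uncorrected values r is 0.70 for Prox1 and Dsp and -0.07 for Prox1 and C1ql2, and the latter is 0.67 after the GC and length correction.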

How the data were processed

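RNA sequencing of the whole hippocampus gave 36 libraries, 3 per sex in each of 6 strains. Each strain has 1 deposited table with counts and FPKM for every library, per the file headers. The deposited counts are unscaled whole numbers per Ensembl gene. FPKM was computed by the authors as fragments per kilobase and per mapped fragments, and any further scaling between libraries or tables is not stated. Trimmomatic 0.32, TopHat2 2.0.13 and SAMtools, then Cufflinks 2.1.1 and DESeq2 1.8.1, are listed in the submitters' processing notes without roles, beside the build GRCm38 (mm10). The read counter, its strand setting and the make-up of sequencing lanes, which held 6 libraries each, were not given in the sources used here. All strains were read against 1 reference build, and the effect of strain variants on alignment was not tested. Per the labels' protocols, males received spike-in Mix 1 and females Mix 2, and no spike-in value was used.

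Library sizes were scaled with the TMM method of edgeR 4.0.16 (R 4.3.3). Its filterByExpr, over the 12 groups with a minimum count of 10 and a total of 15, left 19702 genes (52.8%). One model had a mean for each of the 12 groups, 24 residual degrees of freedom and a dispersion of 0.0132, equal to a coefficient of variation of 11.5% between replicates. Contrasts were tested by quasi-likelihood in edgeR with p-values adjusted by Benjamini-Hochberg at 0.05. Pairs of strains were adjusted over all genes and the 15 pairs together. Log2 differences carry an SE from the F statistic. Iyd and Tdo2 in PWD/Ph rest on at most 29 counts per library. Because the replicates are separate animals, p-values set each difference against the spread between animals of a group. A shift in preparation or sequencing shared by all libraries of a strain is not part of that spread. Whether strain can be told apart from lane is not known, as the make-up of lanes was not given.

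Levels were compared between genes only per length, with the authors' FPKM. The fit was tested on simulated data. Same-numbered males and females of a strain did not deviate together (correlations from -0.293 to 0.325, over 0.1 in 4 of 18 pairs), so numbers do not pair the samples. Correlations between members used 100000 permutations within groups, two-sided, in Python 3.11.15 with NumPy 2.4.6, pandas 2.3.3 and SciPy 1.17.1, and figures used matplotlib 3.10.9. Alternatives were DESeq2 size factors, no low-count filter, at least 1 CPM in 3 libraries, DESeq2 1.42.0, limma 3.58.1 on log2(FPKM + 0.1) and log2(FPKM + 1), a replicate block, and leaving out 3 shallow DBA/2J libraries, whole strains or each library in turn. Added after seeing the data was a correction of each library's log2 counts for GC content and then log length of the longest GENCODE transcript (loess, span 0.5, for 19147 tested genes, 97.2%), with the member correlations under it, without PWD/Ph and without each library.

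The 9 members and all lists were chosen with earlier results of these data known. Named genes are the members, the 3 genes most correlated with each, and from each list those with the smallest strain p. Promoter sequences came from RefSeq, which matched 8 of 9 members, and gene coordinates from GENCODE on GRCm38.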

Additional observations from a re-analysis of the deposited data

How the results depend on the processing

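All 9 members differed between strains in every alternative run. Against the other 5 strains, 39 member values passed, 36 to 43 with 1 library left out, 31 on log2(FPKM + 0.1) and 30 on log2(FPKM + 1). Pairs of strains gave 88, 83 to 89 with 1 library left out, and 78 with the correction for GC content and length. That correction turned the direction of Prox1 in 129S1/SvImJ (0.038) and PWD/Ph (-0.019), C1ql2 in 129S1/SvImJ (-0.48), DBA/1J (-0.42) and PWD/Ph (0.27) and in DBA/1J minus DBA/2J (-0.11), Fibcd1 in DBA/1J (-0.27), Spink8 in DBA/2J (0.27), Rfx3 in 129S1/SvImJ (0.044) and Bok in PWD/Ph (0.053). On FPKM, Tdo2 turned in DBA/1J (0.23 and 0.036 with pseudocounts of 0.1 and 1), in DBA/1J minus DBA/2J (0.18 and 0.11) and in DBA/2J (-0.091 with 1), and Map3k15 in PWD/Ph (-0.41 and -0.17). The cause was not tested.

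The averaged sex difference stayed at 0 members in all alternatives. Within strains, 2 values passed with no low-count filter and 2 with DESeq2 (Prox1 and Dsp in PWD/Ph both times), 1 on log2(FPKM + 0.1) (Iyd in PWD/Ph), and 0 to 5 with 1 library left out. For the sex by strain interaction 1 member passed with the GC and length correction, 2 with no filter, 3 with DESeq2, and 0 to 2 with 1 library left out. Member pairs past both correlation tests numbered 2, 3 with the correction (with Tdo2 and Spink8), 2 without PWD/Ph (Prox1 with Dsp and with Iyd) and 1 to 3 with 1 library left out. Over all genes the GC and length correction moved the averaged sex count from 47 to 182, the count within strains from 1170 to 1911 and the interaction count from 323 to 508. Other alternatives gave 13 to 792 for the averaged sex count and 119 to 1325 for the interaction. With 1 library left out these counts ran from 18 (DBA/1J female replicate 1) to 167 (129S1/SvImJ male replicate 3), from 302 (A/J female replicate 1) to 2944 (PWD/Ph male replicate 2) and from 80 to 1330 (the same 2 libraries), so the shares of all genes beside the sex results are loose.

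Replicate numbers did not pair the samples. With a replicate block the counts were 9 for strain differences, 39 for strains against the rest, 87 for pairs, and 0 for the averaged, within-strain and interaction tests. Of 36 libraries 11 correlated best with one of their own number. Under the block Fibcd1 in C57BL/6J passed (adjusted p = 0.0468 by edgeR) and Tdo2 in DBA/1J did not (adjusted p = 0.051). Depth limits Iyd and Tdo2 in PWD/Ph most.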
